A study of Mus musculus with 104 samples.

Results

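The genes of the synaptic vesicle release machinery were followed in the cerebral cortex of wild type C57BL/6 mice aged 6 months. The 44 genes were taken from a list by symbol: 4 SNARE genes, 12 synaptotagmins, 2 Doc2 genes, 3 Munc13 genes with tomosyn, 9 genes of active zone scaffolds, 3 synapsins, synaptophysin with 3 SV2 genes, 3 genes of SNARE disassembly and 3 Rab3 genes. All 44 were found among the 24060 genes of the RefSeq count table, and all 44 passed the filter on low counts that left 15723 tested genes. The tissue came from 52 females and 52 males of 13 lines, with 1 library per mouse and 4 females and 4 males per line. The lines carry gene names: Tbc1d8 and Gsg1l, on which the comparisons below turn, and Zswim6, Rgs9, Rasgef1a, Ppp1ca, Pcdh20, Morf4l1, Kdm3b, Hrk, Ece2, Dach1 and Arpp19 as the 11 others. However, every animal is labelled wild type, so that Tbc1d8 and Gsg1l below name groups of control animals that carry no labelled mutation. No treatment is labelled, and all groups share strain, age and tissue. The gene names come from a batch tag in the labels, such as Tbc1d8 group, which was read here as the mouse line. Line and batch therefore cannot be told apart. The labels do not say which mice were littermates, and p-values treat the mice as independent.

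Library totals ran from 3.39 to 33.5 M counted reads with a median of 28.4 M. The lowest belonged to Kdm3b female replicate 22, and the next lowest was 23.9 M. Reads of Xist or of Y genes went against the labelled sex in 3 libraries. The count from Y genes was 4479 in female replicate 43 of Rgs9. Male replicate 40 of Rasgef1a had 32425 Xist reads without any from Y genes. Female replicate 39 of Rasgef1a had only 2 Xist reads but also 0 from Y genes, so its reads matched neither sex. All 8 markers of cortical excitatory neurons had reads, with a summed level of 7990 to 9484 CPM (counts scaled by library total and TMM factor), while 10 striatal markers summed to 254.9 to 365 CPM. A further library stood apart by transcript length. In Gsg1l male replicate 13 the longest 10% of genes lay at -0.43 log2 units against the shortest 10%, relative to the average library, whereas the other 103 libraries lay between -0.14 and 0.13. Results that rest on it are given with and without it. Without the 3 libraries against their sex label, 14 release genes were called in Tbc1d8, 9 in Gsg1l and 5 between the sexes, the same numbers as below. In Gsg1l the 9 no longer held Syt4 (adjusted p = 0.0633) and held 1 gene not called otherwise.

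Release begins when a vesicle is docked and primed at the active zone. The vesicle SNARE synaptobrevin (Vamp) zippers with Snap25 and syntaxin on the plasma membrane. Munc13 proteins open syntaxin for this assembly, while tomosyn (Stxbp5) competes with synaptobrevin. RIM proteins, RIM-binding proteins, ELKS proteins (Erc), Bassoon and Piccolo organise the site and hold calcium channels near it. Several synaptotagmins and the Doc2 proteins bind calcium and couple its entry to fusion. Synapsins tether the reserve vesicles, Rab3 marks vesicles for capture by RIM, and Nsf with its SNAP adaptors (Napa, Napb) takes spent SNARE complexes apart. In cortex, forebrain excitatory synapses are known to rely mainly on Syt1, whereas Syt2 and Vamp1 are known from fast-spiking interneurons and from caudal brain regions.

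The promoters of 4 genes are shown because their genes carry the line differences described below: Vamp1, Syt2 and Rab3c, which were lower in the Tbc1d8 and Gsg1l lines, and Unc13c, which was higher in the Tbc1d8 line. Each run is the 250 bases before the RefSeq start on GRCm38.p6, read 5′ to 3′ on the gene's strand, with the GC box GGGCGG (either strand) in capitals. Vamp1 lies at chr6:125215331-125215580 on the plus strand, Syt2 (the upstream of 2 starts) at chr1:134646362-134646611 on the plus strand, Rab3c at chr13:110280207-110280456 on the minus strand and Unc13c at chr9:73969038-73969287 on the minus strand.
Vamp1: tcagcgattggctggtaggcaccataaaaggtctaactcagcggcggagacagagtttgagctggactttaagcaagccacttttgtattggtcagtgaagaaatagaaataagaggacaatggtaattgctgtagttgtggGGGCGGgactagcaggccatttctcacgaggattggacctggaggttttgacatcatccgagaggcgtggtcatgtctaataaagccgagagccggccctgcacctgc
Syt2: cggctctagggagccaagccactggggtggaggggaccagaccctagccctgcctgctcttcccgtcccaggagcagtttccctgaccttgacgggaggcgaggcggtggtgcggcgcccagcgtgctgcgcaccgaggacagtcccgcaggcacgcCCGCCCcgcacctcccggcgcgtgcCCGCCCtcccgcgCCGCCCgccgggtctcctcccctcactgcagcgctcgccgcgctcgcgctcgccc
Rab3c: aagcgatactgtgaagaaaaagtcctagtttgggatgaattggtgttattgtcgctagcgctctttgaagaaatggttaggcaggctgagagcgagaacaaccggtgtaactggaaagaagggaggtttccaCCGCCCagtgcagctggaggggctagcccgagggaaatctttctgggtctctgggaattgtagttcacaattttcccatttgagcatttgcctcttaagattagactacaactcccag
Unc13c: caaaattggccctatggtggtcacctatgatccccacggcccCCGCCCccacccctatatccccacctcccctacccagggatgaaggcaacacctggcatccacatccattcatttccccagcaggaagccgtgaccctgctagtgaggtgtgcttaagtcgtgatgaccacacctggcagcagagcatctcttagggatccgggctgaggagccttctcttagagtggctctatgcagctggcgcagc
Promoters were found for 31 of the 44 genes; the 13 others are Doc2a, Doc2b, Rims2, Rims4, Snap25, Syn3, Syt4, Syt5, Syt7, Syt12, Syt13, Syt17 and Vamp2. The GC box was present in all 4 runs, with 1 match in Vamp1, Rab3c and Unc13c and 3 in Syt2. Among the 38 starts of the 31 genes, 24 (63.2%) held the box, against 32.7% of 32851 RefSeq starts. Those 32851 starts were not matched to the release genes for expression or base composition. The core of the cyclic AMP response element, TGACG, searched on both strands, was present at 1 of the 4 starts shown (Syt2), at 23.7% of the release gene starts and at 17.8% of all starts. The full palindrome TGACGTCA, which holds that core, was found in the window of 1 release gene, Syn1, and at 1.55% of all starts. A match describes letters in the window and nothing of binding.

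Per length, the SNARE Snap25 stood first. Levels between genes are given as RefSeq FPKM, fragments per kilobase of gene model scaled to library depth, which depend on the length of the gene model used. Snap25 was at 1510 to 1949 FPKM with a median of 1704 over all libraries. Synaptophysin (Syp), an abundant vesicle membrane protein, followed with a median of 577 FPKM, Vamp2 with 573, Syt1 with 464, Rab3a with 374, the ATPase Nsf with 273, Syn1 with 221 and the syntaxin Stx1a with 188. The ranges of Syp (534 to 627 FPKM) and Vamp2 (541.5 to 669 FPKM) overlapped, as did many neighbours further down the order. In all, 14 of the 44 genes had a median of at least 100 FPKM and 37 of at least 10 FPKM. These counts and the order hold for the RefSeq models. With the authors' Ensembl models the median was 510.6 FPKM for Snap25, 296.1 for Vamp2 and 250.3 for Syp, which put Vamp2 ahead of Syp. The lowest were Syt10 with a median of 1.11 FPKM, Syt9 with 1.59, Doc2b with 2.36, Unc13c with 3.51, Syn3 with 5.06 and Sv2c with 5.39. Syt10 held only 10 to 150 reads in a library, so its values are the least precise of the set.

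**Figure D1:**
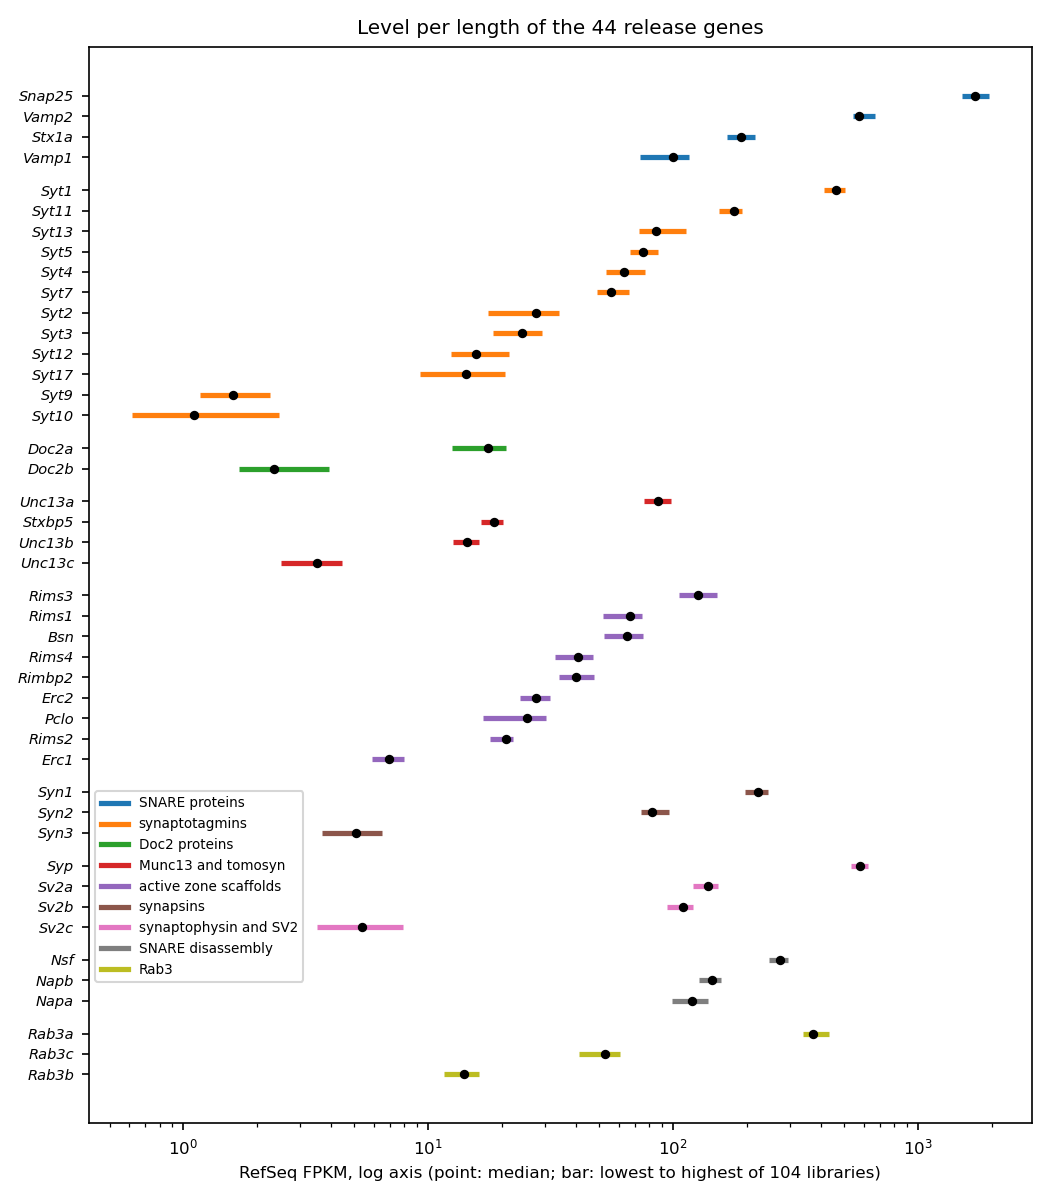
RefSeq FPKM on a log axis for the 44 release genes grouped by role; points are medians and bars span the lowest to the highest of all libraries. Snap25 has the highest median (1704 FPKM) and Syt10 the lowest (1.11 FPKM).

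Each family had a member that led it in nearly every library. Shares are of the summed FPKM of the listed family members, as mean ± SD over all libraries of both sexes. Vamp2 made up 85.4% ± 1.40 and Vamp1 14.6% ± 1.40 of their pair. Among the 12 synaptotagmins Syt1 held 45.9% ± 1.17, followed by Syt11 (17.7% ± 0.375), which does not bind calcium, Syt13 (8.65% ± 0.963), Syt5 (7.50% ± 0.400), Syt4 (6.31% ± 0.420) and Syt7 (5.60% ± 0.372), a high-affinity sensor known for asynchronous release. Syt2, another fast sensor, held 2.68% ± 0.327. The Munc13 sum was 83.0% ± 1.00 Unc13a, 13.7% ± 0.836 Unc13b and 3.39% ± 0.360 Unc13c. Doc2a made up 87.8% ± 2.31 of the Doc2 pair, Rab3a 84.9% ± 0.908 of the Rab3 sum and Syn1 71.7% ± 0.929 of the synapsin sum.

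Among the RIM genes Rims3, which encodes a short RIM that lacks the zinc finger and PDZ domains, held 49.3% ± 1.64, ahead of Rims1 with 26.3% ± 1.21, Rims4 with 16.2% ± 0.972 and Rims2 with 8.25% ± 0.470. The Rims3 and Rims4 models have an implied length of 977 and 832 bases, the shortest of the set, and a per-length value leans on that. Bassoon (Bsn) held 71.9% ± 1.68 against 28.1% ± 1.68 for Piccolo (Pclo), and Erc2 79.8% ± 1.33 against 20.2% ± 1.33 for Erc1. Sv2a (54.9% ± 1.12) and Sv2b (43.01% ± 1.22) stood close, with Sv2c at 2.13% ± 0.288. Napb, the neuronal SNAP adaptor, held 54.9% ± 1.34 and Napa 45.1% ± 1.34. The leading member was the largest in every library in each family except the last, where Napb led in 103 libraries and Napa in 1. With the authors' Ensembl models the same members led in the same numbers of libraries, though shares moved: Syt1 to 35.5%, Rims3 to 41.5% and Rab3a to 78.8%.

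Mice of the same line and sex differed little in these genes. The SD of log2 CPM after removing the mean of each line and sex had a median of 0.08 over the 44 genes and 0.12 over all tested genes. Most of the 44 are abundant, and against the tested genes of like mean level (levels split into 10 equal bins) only 13 of 44 lay below the median SD. The steadiest were Vamp2 with an SD of 0.038, Syp with 0.039, Syn1 with 0.041 and Rab3a with 0.045, each below the median of 0.064 in its level bin. The widest for their level were Syt2 (0.18, which is 2.69 times its bin's median), Syt12 (0.18, 2.42 times) and Syt13 (0.15, 2.27 times), followed by Sv2c, Syt17 and Vamp1 (1.97, 1.96 and 1.93 times). The lowest residuals of Syt2 (-0.57) and Vamp1 (-0.39) came from the same library, Zswim6 female replicate 50, and the highest residuals of Syt12 (0.39) and Syt13 (0.36) from Ppp1ca female replicate 36. Syt10 had the largest SD of all (0.38), close to the 0.32 of genes at its low level.

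The Tbc1d8 and Gsg1l lines were each compared with the mean of the other 11 lines. Both comparisons share these 88 control libraries, so like directions in both are not independent. No reason for setting Tbc1d8 and Gsg1l apart from the other lines is given here. If they were picked because they stand apart in these data, that choice shaped their p-values and the test within the 11 lines. In the Tbc1d8 line 14 of the 44 genes passed the test (edgeR's quasi-likelihood test, Benjamini-Hochberg adjusted p under 0.05 over all tested genes), 6 higher and 8 lower. Over all tested genes 15% were called, with 6.91% higher and 8.12% lower. In the Gsg1l line 9 genes passed, 3 higher and 6 lower, beside 13.6% of all genes, 6.4% higher and 7.16% lower. Abundant genes were called more often: of the 10% of genes with the highest level 33.6% were called in Tbc1d8 and 31.3% in Gsg1l, and of the 27 release genes among them 33.3% and 22.2%. Of the 17 release genes below that level 5 and 3 were called, against 13% and 11.6% of all genes there. The median log2 difference was -0.01 in Tbc1d8 and -0.02 in Gsg1l, against 0.01 in both for all genes.

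**Figure D2:**
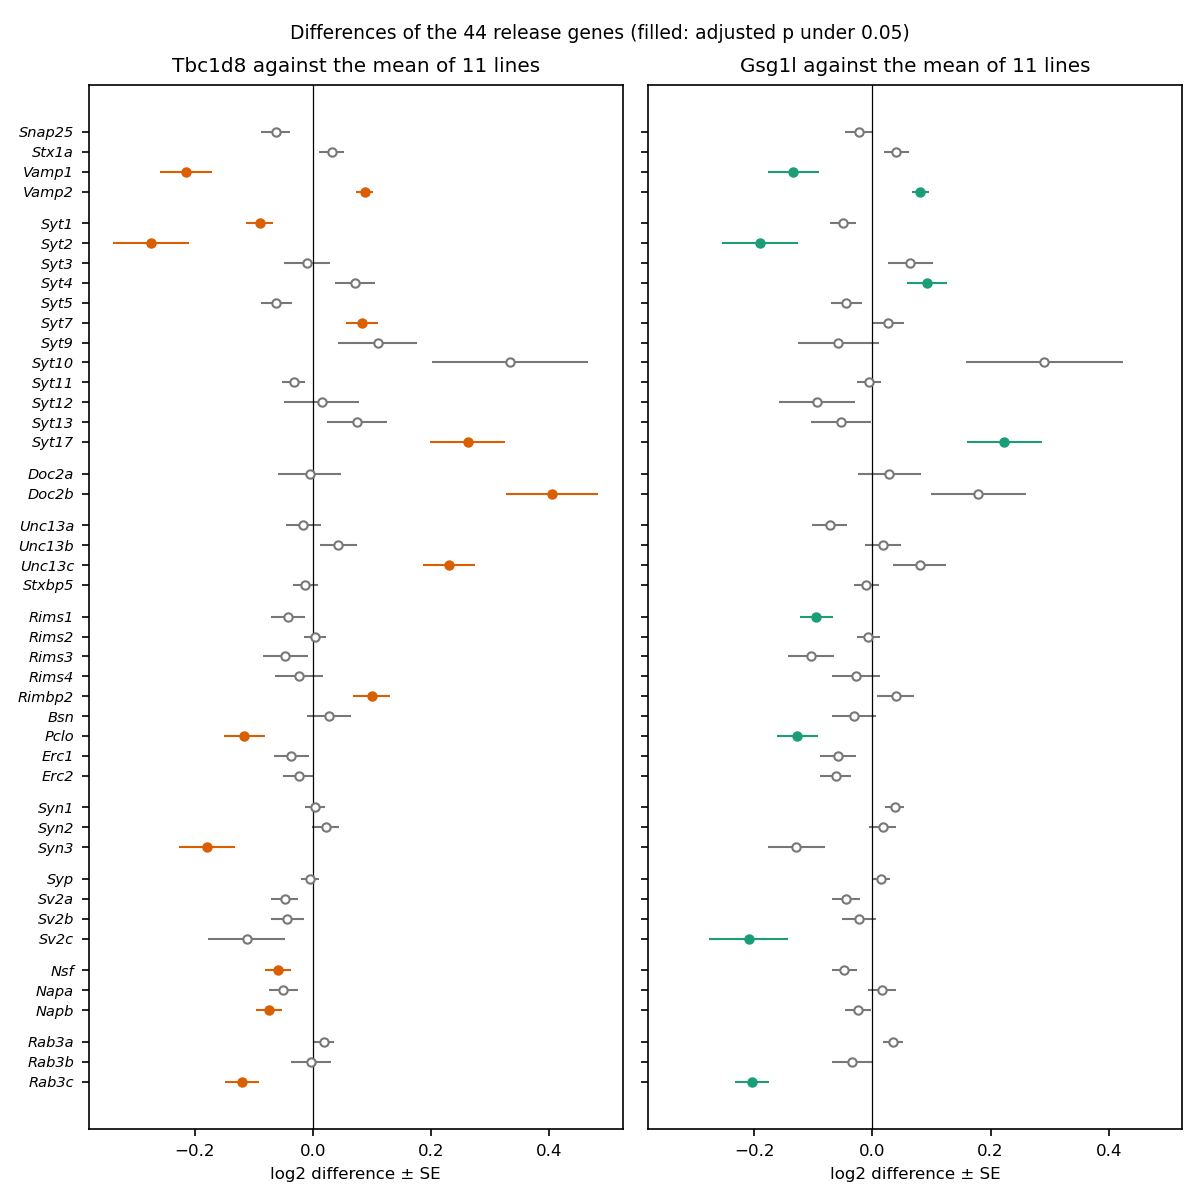
log2 difference (± SE) of each release gene in the Tbc1d8 line (left, n = 8) and the Gsg1l line (right, n = 8) against the mean of 11 lines (n = 88); filled points have an adjusted p under 0.05. The changes are small, with Doc2b in Tbc1d8 the largest called one at 0.40.

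The vesicle SNAREs Vamp2 and Vamp1 differed from the 11 lines in opposite directions in both lines. Vamp2 (chr11:69088490-69092384, GRCm38), the main synaptobrevin of forebrain synapses, was at 1174 to 1326 CPM (median 1237) in the 88 libraries of the 11 lines, at 1270 to 1352 CPM (median 1316) in Tbc1d8 and at 1256 to 1410 CPM (median 1309) in Gsg1l. All 8 libraries of both lines lay above the median of the 88, and both lines had a higher mean than each of the 11 lines, but the ranges overlapped. The log2 difference was 0.09 (SE 0.01, adjusted p = 2.94e-06) in Tbc1d8 and 0.08 (SE 0.01, adjusted p = 1.89e-05) in Gsg1l. Vamp1, whose gene on chromosome 6 encodes the synaptobrevin of spinal, brainstem and interneuron terminals, was at 229.5 to 361.5 CPM (median 321) in the 88 libraries, 257.1 to 304.2 CPM (median 269.9) in Tbc1d8 and 250.7 to 361.3 CPM (median 283.1) in Gsg1l. All 8 Tbc1d8 and 7 of 8 Gsg1l libraries lay below the median of the 88. The log2 difference was -0.21 (SE 0.04, adjusted p = 0.000127) in Tbc1d8 and -0.13 (SE 0.04, adjusted p = 0.0255) in Gsg1l, where the call was lost in 8 of 24 alternatives. As a share of the pair, median Vamp1 FPKM was 12.4% in Tbc1d8, 12.8% in Gsg1l and 15.1% in the 11 lines. Snap25 (-0.06 and -0.02) and Stx1a (0.03 and 0.04) did not pass in either line. In bulk tissue, fewer cells of a type and less RNA per cell cannot be told apart.

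Among the synaptotagmins, Syt2 and Syt17 differed in both lines. Syt2 had 58.63 to 115.6 CPM (median 95.2) in the 88 libraries, 65.89 to 84.32 CPM (median 77.9) in Tbc1d8 and 69.15 to 103.4 CPM (median 76.6) in Gsg1l. In Gsg1l, 6 libraries lay below the median of the 88 and females 14 and 15, at 101.5 and 103.4 CPM, above it. For Syt2 the log2 difference was -0.27 (SE 0.06, adjusted p = 0.00118) in Tbc1d8 and -0.19 (SE 0.06, adjusted p = 0.0336) in Gsg1l, where it did not pass without male replicate 13 (adjusted p = 0.127) and was lost in 12 of 24 alternatives. Syt17, a synaptotagmin that does not bind calcium, had 15.07 to 31.44 CPM (median 22.7) in the 88 libraries, 22.83 to 33.01 CPM (median 27.3) in Tbc1d8 and 21.52 to 31.57 CPM (median 27.2) in Gsg1l. Its log2 difference was 0.26 (SE 0.06, adjusted p = 0.0016) in Tbc1d8 and 0.22 (SE 0.06, adjusted p = 0.00993) in Gsg1l (lost in 5 of 24 alternatives), within ranges that overlapped. In Tbc1d8 Syt1, the fast sensor of forebrain synapses, was lower by a small amount (-0.09, SE 0.02, adjusted p = 0.00258) and Syt7 higher (0.08, SE 0.03, adjusted p = 0.0273, lost in 7 of 24 alternatives). Syt4, which lacks calcium binding in one of its C2 domains, was called in Gsg1l (0.09, SE 0.03) at the very edge of the threshold, and the call was lost in 18 of 24 alternatives. The other 7 synaptotagmins passed in neither line, Syt10 among them with log2 differences of 0.33 (SE 0.13) and 0.29 (SE 0.13).

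Doc2b and Unc13c were called higher in the Tbc1d8 line, and both calls held in 24 of 24 alternative settings. Doc2b (chr11:75768966-75796049), a high-affinity calcium sensor linked to spontaneous release, had 7.17 to 15.4 CPM (median 9.69) in the 88 libraries, 10.53 to 16.79 CPM (median 12.5) in Tbc1d8 and 7.94 to 13.56 CPM (median 10.9) in Gsg1l. All 8 Tbc1d8 libraries lay above the median of the 88, and 1 above their highest. Its log2 difference was 0.40 (SE 0.08, adjusted p = 6.2e-05) in Tbc1d8 and 0.18 (SE 0.08, adjusted p = 0.129) in Gsg1l. Unc13c, the Munc13-3 gene known from cerebellar granule cells, had 20.34 to 33.64 CPM (median 28.2) in the 88 libraries, 28.87 to 35.84 CPM (median 33.2) in Tbc1d8 and 24.04 to 34.47 CPM (median 30.6) in Gsg1l. All 8 Tbc1d8 libraries lay above the median of the 88, and 3 above their highest. For Unc13c the log2 difference was 0.23 (SE 0.04, adjusted p = 4.4e-05) in Tbc1d8 and 0.08 (SE 0.04, adjusted p = 0.244) in Gsg1l. Both genes are minor members of their families. Doc2a (-0.01 and 0.03), Unc13a (-0.02 and -0.07), Unc13b (0.04 and 0.02) and Stxbp5 (-0.01 in both) did not pass. An exon of Gm12339 overlaps Doc2b on the other strand, one of 17 release genes with such an overlap, among them Pclo, Rimbp2, Syn3, Syt4 and Syt7. Whether reads were counted by strand is not given in the sources used here, so reads of such pairs cannot be told apart.

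**Figure D3:**
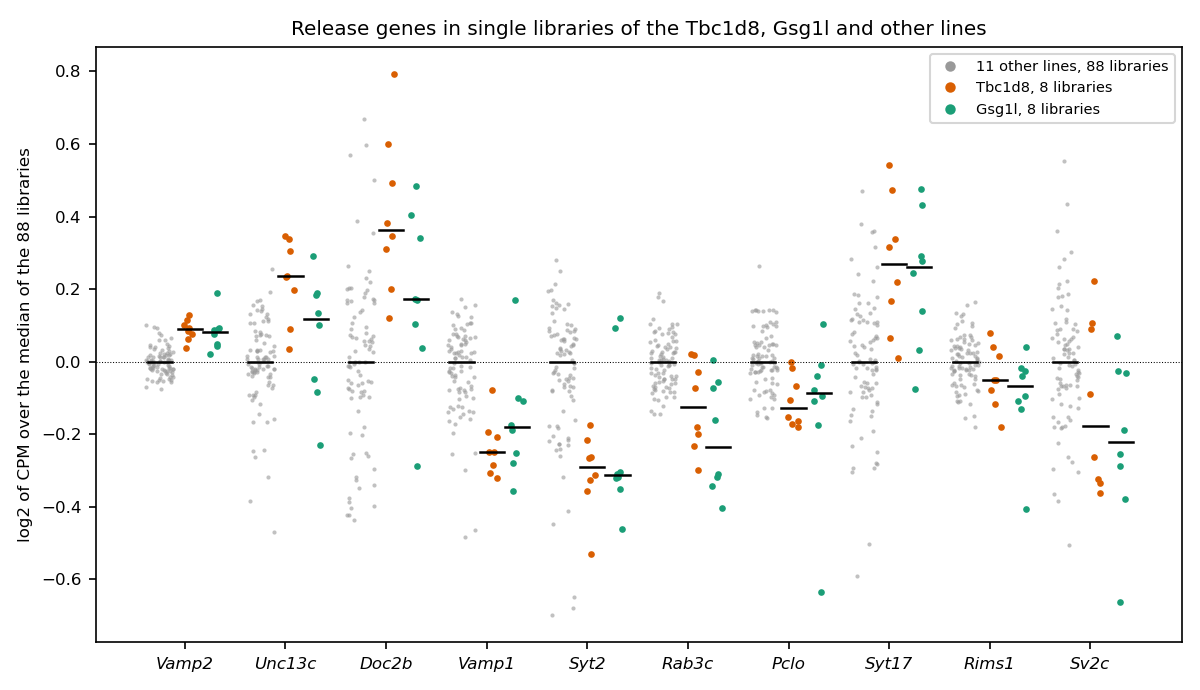
log2 of CPM over the median of the 88 libraries of the 11 lines for the 10 release genes with the 6 smallest p-values in one or the other line; each point is 1 library and each bar a group median. All 8 Tbc1d8 and all 8 Gsg1l libraries lie above 0 for Vamp2, and Pclo and Rims1 each have 1 Gsg1l library far below the others, male replicate 13.

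Of the 9 scaffold genes, Pclo was called in both lines and Rimbp2 and Rims1 in 1 each. Pclo had 504.3 to 674.9 CPM (median 562.3) in the 88 libraries, 496.5 to 562.2 CPM (median 514.2) in Tbc1d8 and 361.7 to 604.4 CPM (median 529.3) in Gsg1l. All 8 Tbc1d8 and 7 Gsg1l libraries lay below the median of the 88. The log2 difference was -0.12 (SE 0.03, adjusted p = 0.0136) in Tbc1d8 and -0.13 (SE 0.03, adjusted p = 0.00714) in Gsg1l. Without Gsg1l male replicate 13 the latter was -0.06 (adjusted p = 0.187). Rims1, the main long RIM, had 240 to 305 CPM (median 272.2) in the 88 libraries, 240 to 287.2 CPM (median 262.7) in Tbc1d8 and 205.3 to 279.6 CPM (median 259.8) in Gsg1l. Its log2 difference in Gsg1l was -0.09 (SE 0.03, adjusted p = 0.0141), and -0.06 (adjusted p = 0.202) without male replicate 13. Rimbp2, which links RIM to calcium channels, was higher in Tbc1d8 by 0.10 (SE 0.03, adjusted p = 0.0192), a call lost in 6 of 24 alternatives. Bsn (0.03 and -0.03), Rims2, Rims3, Rims4, Erc1 and Erc2 passed in neither line.

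Among vesicle and recycling genes Rab3c was lower in both lines. This Rab3 GTPase had 409.6 to 515.7 CPM (median 452.7) in the 88 libraries, 368 to 459.2 CPM (median 415.1) in Tbc1d8 and 342.2 to 453.7 CPM (median 384.8) in Gsg1l. In Tbc1d8 4 libraries and in Gsg1l 5 lay below the lowest of the 88. The log2 difference was -0.12 (SE 0.03, adjusted p = 0.00145) in Tbc1d8 and -0.20 (SE 0.03, adjusted p = 1.02e-07) in Gsg1l. Without Gsg1l male replicate 13 the latter was -0.18 (adjusted p = 1.04e-05). Rab3a (0.02 and 0.04) and Rab3b (-0.003 and -0.03) did not pass. Sv2c, the minor SV2 gene of cortex, had 16.29 to 33.9 CPM (median 23.1) in the 88 libraries, 17.99 to 26.98 CPM (median 20.5) in Tbc1d8 and 14.61 to 24.29 CPM (median 19.8) in Gsg1l. It was called in Gsg1l at -0.21 (SE 0.07, adjusted p = 0.0223), and was -0.15 (adjusted p = 0.158) without male replicate 13. In Tbc1d8 Syn3, the least abundant synapsin here, was lower, with a log2 difference of -0.18 (SE 0.05, adjusted p = 0.00473). This call was lost in 1 of 24 alternatives, the edgeR fit in females only (adjusted p = 0.714). Syn3 was at 51.99 to 61.66 CPM in Tbc1d8 females and 43.94 to 51.41 CPM in Tbc1d8 males, though no release gene passed the test of sex by line. Napb (-0.07, SE 0.02, adjusted p = 0.0127) and Nsf (-0.06, SE 0.02, adjusted p = 0.0462) were called lower in Tbc1d8 as well. The call was lost for Napb in 3 and for Nsf in 14 of 24 alternatives. Syp, Sv2a, Sv2b, Syn1, Syn2 and Napa passed in neither line.

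Rab3c is given by sex in these lines. In the Tbc1d8 line the 4 females had 430.6 to 459.2 CPM and the 4 males 368 to 399.6 CPM, with no overlap. Of these males, replicates 45 and 47 (399.6 and 368 CPM) were on plate 2, and all 4 females and males 46 and 48 (394.3 and 384.9 CPM) on plate 1. In the Gsg1l line the sexes overlapped, with 364.8 to 453.7 CPM in females and 342.2 to 404.8 CPM in males. Fitted in males alone, the log2 difference from the 11 lines was -0.21 in Tbc1d8 (adjusted p = 4.93e-05) and -0.29 in Gsg1l (adjusted p = 8.1e-08). In females alone it was -0.03 (adjusted p = 0.769) and -0.12 (adjusted p = 0.119). The test of sex by line over all 13 lines gave Rab3c an unadjusted p of 0.0725 and an adjusted p of 1, so a difference between the sexes in this effect was not shown.

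The calls in the Gsg1l line rested in part on single libraries. Without male replicate 13, 4 of the 44 genes were called (Vamp2, Rab3c, Vamp1 and Syt17), while 1449 of 15794 genes were called over all. Without female replicate 13 or without male replicate 16 the count was 5. In male replicate 13, all 12 release genes with an implied model over 6 kb lay below the mean of the Gsg1l males, by a median of -0.15. Of the 13 with a model of up to 3 kb, 10 lay above it, with a median of 0.09. Pclo, 22100 bases long, stood at -0.41 and Syt3, 2498 bases long, at 0.20. The 3 short exceptions were Rims4 (-0.10), Rims3 (-0.19) and the sparse Syt10 (-0.56). Such a gradient ran through all genes of this line: the median log2 difference from the 11 lines went from 0.04 in the shortest 10% to -0.03 in the longest 10%, and from 0.02 to -0.01 without male replicate 13. In Tbc1d8 it went from 0.03 to -0.01, with no single library apart. With a score of long against short transcripts as a covariate, 14 release genes were called in Tbc1d8, beside 2206 of 15723 genes over all, and 5 in Gsg1l, beside 1509 genes. The 14 held 2 genes not called otherwise in place of Pclo (-0.06, adjusted p = 0.06) and Nsf (-0.05, adjusted p = 0.0925). Pclo did not pass in Gsg1l either (-0.05, adjusted p = 0.191), whereas Vamp2, Vamp1, Rab3c and Syt17 passed in both. What sets the gradient was not tested.

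**Figure D4:**
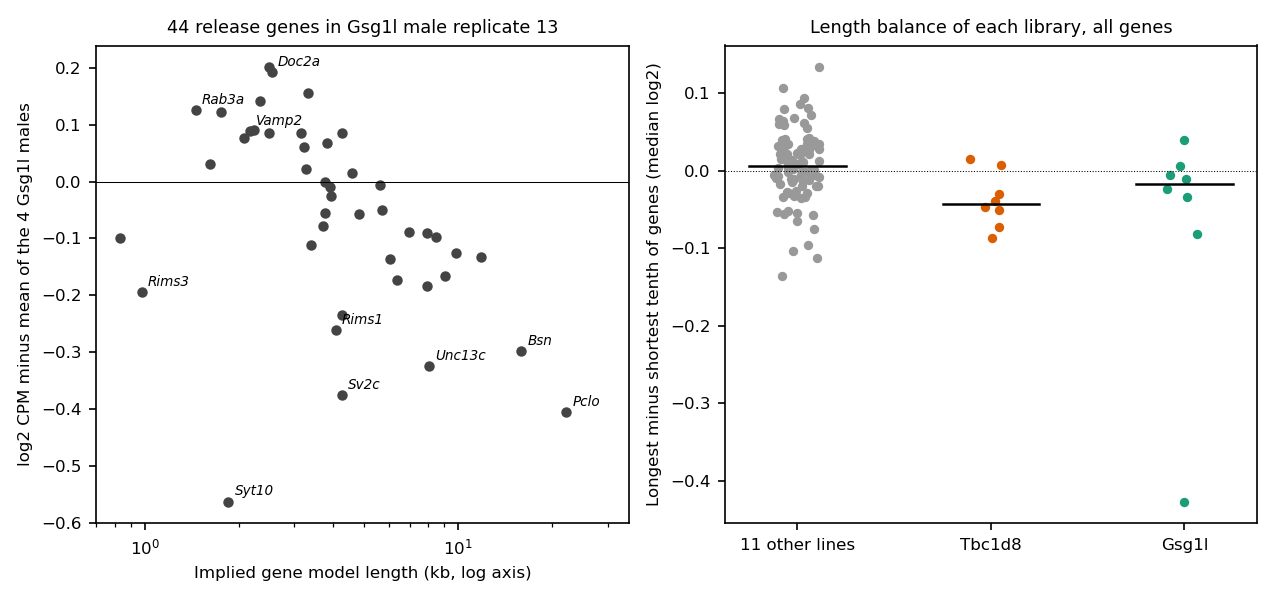
Left, log2 CPM of each release gene in Gsg1l male replicate 13 minus the mean of the 4 Gsg1l males against its implied gene model length (log axis); right, median log2 level of the longest minus the shortest 10% of all genes per library, relative to the average library, with group medians as bars. The library stands at -0.43, and all 12 release genes over 6 kb lie below 0 in it.

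Of the 8 libraries on plate 2, 2 were Tbc1d8 males and 1 a Gsg1l female. On plate 1 alone, which leaves 6 Tbc1d8 libraries, 7 release genes were called in Tbc1d8, beside 1433 of 15912 genes over all. Vamp2, Vamp1, Unc13c, Doc2b, Syt2, Syt17 and Syn3 passed. Rab3c (-0.09, adjusted p = 0.056), Syt1 (-0.07, adjusted p = 0.0922), Pclo (-0.11, adjusted p = 0.0721), Rimbp2 (0.09, adjusted p = 0.0949), Syt7 (0.08, adjusted p = 0.0809), Napb (-0.05, adjusted p = 0.198) and Nsf (-0.04, adjusted p = 0.419) did not. Plate and the smaller number of libraries cannot be told apart in this count.

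Whether the 2 lines differ from each other was tested directly. In Tbc1d8 against Gsg1l 0 of 44 release genes passed with edgeR or with DESeq2, and 0.00636% of all genes did, a single gene. At an unadjusted p under 0.05 there were 4: Unc13c (0.15 higher in Tbc1d8, 95% interval 0.03 to 0.27), Doc2b (0.23, interval 0.01 to 0.44), Rab3c (0.08, interval 0.01 to 0.16) and Napa (-0.07, interval -0.13 to -0.002). For Vamp2 the difference was 0.01 with an interval of -0.03 to 0.05, and for Syt2 -0.08 with an interval of -0.25 to 0.09.

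Across all 13 lines, 9 release genes passed the F-test, against 9.61% of all genes: Rab3c (adjusted p = 6.16e-06), Vamp2 (adjusted p = 1.09e-05), Vamp1, Doc2b, Syt2, Unc13c, Pclo, Syt1 and Syt17. On plate 1 alone there were 4, beside 1001 of 15912 genes over all. Within the 11 lines other than Tbc1d8 and Gsg1l, 0 release genes passed with edgeR or with DESeq2, against 0.127% of all genes. Before adjustment 2 were under 0.05 there in edgeR's test across all genes, Syn1 and Snap25. Mean Rab3c in the 11 lines ran from 438.4 CPM in Dach1 to 465.6 CPM in Ppp1ca, with Tbc1d8 at 417.4 ± 35.2 (SD, n = 8) and Gsg1l at 393.9 ± 42.4 (SD, n = 8) below all of them. Mean Vamp1 ran from 299.5 CPM in Rgs9 to 335 CPM in Morf4l1, above the 272.7 ± 15.1 of Tbc1d8 and the 288.6 ± 33.7 of Gsg1l, with Rgs9 (SD 36.3) and Gsg1l closer than their spread. Mean Doc2b ran from 8.87 CPM in Morf4l1 to 11.03 CPM in Rgs9, below the 12.97 ± 2.03 of Tbc1d8, while Gsg1l at 11.1 ± 1.78 did not stand apart from Rgs9.

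Of 49 other release and vesicle cycle genes outside the list, 48 were tested. In Tbc1d8 1 was called higher and 11 lower (25% called, against 15% of all genes), and in Gsg1l 4 higher and 10 lower (29.2%, against 13.6%). These shares were not matched for level. Of the 10% of genes with the highest level, 33.6% were called in Tbc1d8 and 31.3% in Gsg1l. Sncb (β-synuclein) was higher in both (0.09 and 0.10, SE 0.02 each). Cacnb4, a calcium channel β subunit, was lower in both at -0.19 (SE 0.03, adjusted p = 1.3e-06) and -0.18 (SE 0.03, adjusted p = 7.78e-06). Rab27b, a vesicle Rab that shares effectors with Rab3, was lower at -0.17 (SE 0.04) and -0.22 (SE 0.04). Cadps2, a priming factor, was lower in Tbc1d8 (-0.16, SE 0.05). In Gsg1l, Rab3d (0.16, SE 0.05) and the liprin Ppfia4 (0.10, SE 0.03) were called higher.

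Markers of fast-spiking interneurons and of thalamus, both known to express Vamp1 and Syt2, had lower median sums in the 2 lines where those genes were lower, with ranges that overlapped. Of 7 fast-spiking markers, 3 were called lower in both lines and 0 higher: Lgi2 (-0.31 and -0.19), Kcna1 (-0.28 and -0.25) and Kcnc1 (-0.12 and -0.07), while Pvalb had -0.06 and -0.03 and did not pass. Their sum was 984.7 to 1115 CPM (median 1088) in Tbc1d8, 1036 to 1212 CPM (median 1070) in Gsg1l and 928.1 to 1337 CPM (median 1200) in the 88 libraries. The 8 thalamic markers summed to 230.2 to 256 CPM (median 241.2), 214.1 to 274.2 CPM (median 243.6) and 235.8 to 290.4 CPM (median 263). Among them Rora (-0.16 and -0.14) and Slc17a6 (-0.16 in both) were called lower in both lines and Calb2 (0.19) higher in Tbc1d8. Most of the thalamic list went the other way from its sum, with 5 of 8 markers above 0 in each line and a median log2 difference of 0.07 in Tbc1d8 and 0.06 in Gsg1l. The 11 general interneuron markers, with 1 of 11 and 2 of 11 called, had sums with medians of 1201, 1194 and 1221 CPM, and 9 oligodendrocyte markers, with 0 and 1 called, medians of 2100, 2035 and 2306 CPM. The log2 difference was below 0 for 8 of the 11 interneuron and all 9 oligodendrocyte markers in each line. The sum of the 10 pan-neuronal markers went the other way, with medians of 7215, 7164 and 6888 CPM. Marker by marker this list was split, with a positive log2 difference for 5 of 10 in Tbc1d8 and 6 of 10 in Gsg1l. Calls numbered 3 and 4, of which 1 per line pointed down. The 8 excitatory cortical markers also had higher sums, with medians of 8939, 9083 and 8535 CPM. In each line 5 of these 8 were above 0 and 3 below, with 2 called higher and 1 lower. All markers of these lists passed the filter on low counts, and their part in the release gene results was not tested. With striatal, oligodendrocyte, choroid plexus and erythroid scores as covariates, 13 release genes were called in Tbc1d8, beside 1917 of 15723 genes over all, and 4 in Gsg1l, beside 1498 genes. The last 2 scores rested on few reads. The erythroid score held 1 gene, at a median of 0.848 CPM in the 11 lines. The choroid plexus score held 5 genes, which summed there to a median of 3.259 CPM and at most 309.6 CPM. Of the 9 Gsg1l calls, Vamp2 and Rab3c still passed, and Vamp1, Syt2, Syt4, Syt17, Pclo, Rims1 and Sv2c did not, with adjusted p from 0.0572 (Pclo) to 0.302 (Syt4).

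Between the sexes 5 of 44 release genes (11.4%) passed, 2 higher in females and 3 lower, against 8.57% of all genes, 4.07% higher and 4.5% lower. Among the 10% of genes with the highest level the shares were 14.8% of the release genes and 15.2% of all genes. Syt5, a calcium-binding synaptotagmin, was at 116.3 to 149.7 CPM (median 129.3) in 52 females and 121.3 to 152.1 CPM (median 135.5) in 52 males, a log2 difference of -0.06 (SE 0.01, adjusted p = 0.000698) with the females lower in 10 of 13 lines. Erc2, an ELKS scaffold, had medians of 162.7 and 172 CPM (-0.05, SE 0.01, adjusted p = 0.00631, lower in 9 of 13 lines). Bsn had medians of 1018 and 1055 CPM (-0.06, SE 0.02, adjusted p = 0.0425, lower in 10 of 13 lines), and its call was lost in 11 of 28 alternatives. Syp, which is on the X chromosome, had medians of 1455 and 1413 CPM (0.03, SE 0.01, adjusted p = 0.00868, higher in 11 of 13 lines). Rab3c had 364.8 to 515.7 CPM (median 457.3) in females and 342.2 to 482.6 CPM (median 438.9) in males, a log2 difference of 0.06 (SE 0.02, adjusted p = 0.00248), higher in 11 of 13 lines.

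**Figure D5:**
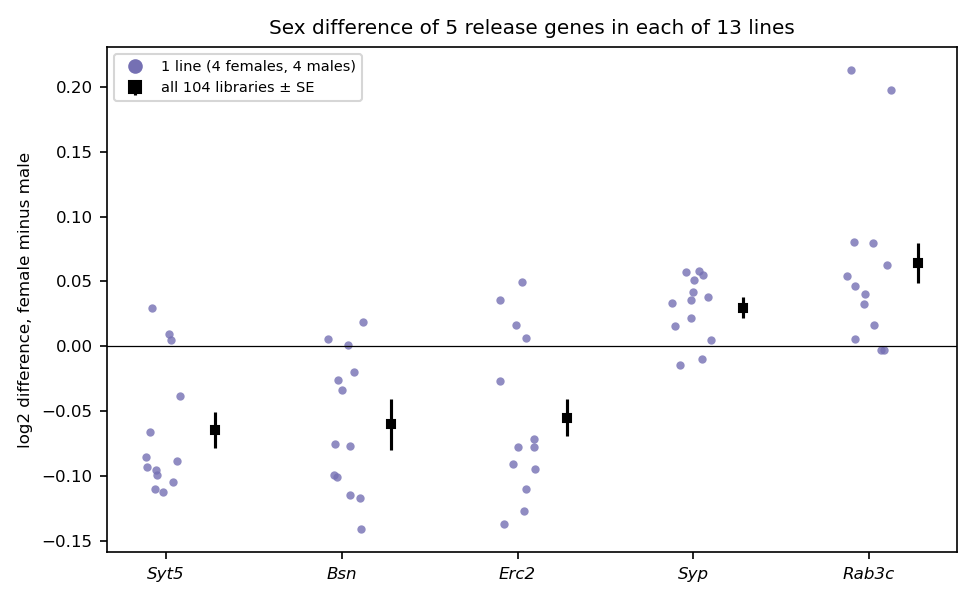
log2 difference, female minus male, of the 5 release genes that passed the sex test; circles are single lines (4 females and 4 males each) and squares the fit over all libraries ± SE. For Rab3c, Tbc1d8 (0.21) and Gsg1l (0.20) lie above the other 11 lines.

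The Rab3c sex difference was widest in Tbc1d8 (0.21) and Gsg1l (0.20). Without these lines it was 0.04 (adjusted p = 0.0941), and 3 release genes passed, beside 913 of 15669 genes over all: Syt5 (-0.06), Erc2 (-0.07) and Bsn (-0.06). Syp then stood at 0.03 (adjusted p = 0.0528). Syn1, the other X-linked gene of the set, did not pass (0.01, SE 0.01, adjusted p = 0.422). The sex difference varied between lines past the threshold for 0 release genes and for 0.0382% of all genes. Of these 6 genes, 5 were Xist and the Y genes used to check sex. The 3 libraries against their sex label were kept in this test, and it was not run without them. Before adjustment 2 were under 0.05 in edgeR's test of sex by line, Syn2 and Rab3b. Both had their lowest female minus male difference in Rasgef1a (-0.15 and -0.20). Female replicate 39 and male replicate 40 of that line went against their sex label. Of the 48 other release genes, 1 was higher in females (Rab27b, 0.08, SE 0.02) and 2 lower (Syt16, -0.06, SE 0.01, and Ppfia3, -0.05, SE 0.01).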

How the data were processed

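Cortex RNA from 52 female and 52 male mice was sequenced from TruSeq stranded libraries, per the labels' protocols. Reads were aligned with STAR 2.7.3a and counted with HTSeq 0.10.0 on GRCm38 (mm10), per the submitters' processing notes. The authors deposited raw read counts per gene and FPKM values, each for RefSeq and for Ensembl gene models. The deposited Ensembl count table ended inside a line, and that last row was dropped. Samples were grouped by the sex in the labels and by their batch tag, which was read as the mouse line.

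RefSeq counts were the basis of every test. Genes were filtered with edgeR 4.0.16 (filterByExpr by line and sex), scaled by TMM and fitted with edgeR's quasi-likelihood test on line and sex, with Benjamini-Hochberg adjustment over 15723 genes and a threshold of 0.05. A line was set against the mean of 11 lines. The SE is the log2 difference divided by the square root of F. CPM are TMM-scaled, and their log2 values used a prior count of 2. Levels between genes and family shares used the deposited FPKM. The implied model length is the count per FPKM and total. Promoters came from RefSeq, GRCm38.p6, and gene spans and overlapping exons from GENCODE on GRCm38. Scripts were tested on simulated data.

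The release genes and all lists were chosen with earlier results of these data known. Any release gene could be named; ranges by group are given for the called genes with the 6 smallest p-values in Tbc1d8 or Gsg1l, and of the other release genes the called ones with the 3 largest differences per direction, of which 2 are not reported here. Alternatives were DESeq2 1.42.0, limma 3.58.1 on log2 FPKM with a pseudocount of 0.1 or 1, other scaling, filters, gene models, covariates and subsets of libraries.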

Additional observations from a re-analysis of the deposited data

Results flagged for a closer look

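In 20 groups of 8 libraries (10 release genes in 2 lines), 4 had an end library whose gap to its neighbour was past Dixon's 95% critical value for the group's range. Chance alone gives this in about 1 of 20 independent groups. The groups here share libraries, and their genes were taken by smallest p-value in these lines, so that rate does not apply to them. All 4 were in the Gsg1l line. Male replicate 13 was highest for Vamp2 at 1410 CPM, above the next at 1318 CPM. The same library was lowest for Pclo at 361.7 CPM (next 497.8 CPM) and for Rims1 at 205.3 CPM (next 248.8 CPM). It is the library with the lowest balance of long to short transcripts (-0.43). Female replicate 14 was highest for Vamp1 at 361.3 CPM, above the next at 299.6 CPM.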

How the results depend on the processing

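No called release gene changed direction under any alternative run. In Tbc1d8, 14 genes became 7 on plate 1 only, 4 in females only and 8 in males only, and leaving out 1 library gave 10 (without male replicate 47) to 14. In Gsg1l, 9 became 4 with tissue scores as covariates, 5 with the transcript length score and 0 in females only, where edgeR called 285 of 15547 genes. Leaving out 1 library there gave 4 (without male replicate 13) to 11 (without female replicate 14), with 5 without female replicate 13 or male replicate 16 and 6 without female replicate 16. Across 13 lines, 9 became 4 on plate 1 only. Between the sexes, 5 became 3 without the lines Tbc1d8 and Gsg1l, and 6 with the replicate block. Replicate numbers did not pair the samples: 8 of 52 pairs correlated above 0.1, with a median of 0.0172. DESeq2 called 14, 10 and 5 genes in Tbc1d8, Gsg1l and between the sexes. With Ensembl FPKM the family share was 91.35% for Vamp2, 35.53% for Syt1, 86.36% for Unc13a, 41.52% for Rims3, 76.11% for Syn1, 60.82% for Sv2a, 53.1% for Napb and 78.78% for Rab3a; the models differ in length. The length score, the fits without the Dach1 line, without both lines, and those without single Gsg1l libraries for the comparisons of 13 lines and sexes were chosen after seeing the data. Subsets hold fewer samples; for the other settings the cause was not tested. With 10 reads in 1 library, Syt10 is limited by depth.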
